A study of Mus musculus with 12 samples.

Results

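A set of 8 genes of neutrophil extracellular trap (NET) formation and of DNA and granule breakdown was followed in cultured mouse neutrophils. They were the peptidylarginine deiminases Padi4 and Padi2, the nucleases Dnase1l3, Dnase1l1, Dnase2a and Trex1, the granule protein Plbd1 and the protease inhibitor Serpinb1a. These 8 genes were picked by name out of 29737 rows of the count table, with the higher level of Dnase1l3 under tauro-β-muricholic acid (Tβ-MCA) already known, and all 8 passed the filter on low counts, which left 16761 genes. Their differences between Tβ-MCA and PBS are therefore given as a description and without a test. Neutrophils of wild-type mouse bone marrow, described in the labels as Ly6G+ cells taken with magnetic beads, were cultured for 24 h. Each of the 4 groups had 3 samples: PBS as the vehicle, 200 μM taurocholic acid (TCA), 200 μM glycocholic acid (GCA), and Tβ-MCA, whose dose is 10 μM in the labels and 200 μM in the study's methods. The columns of the GCA samples are headed GA in the deposited tables, as in the series' design text, and were matched to the samples titled GCA by that abbreviation and the replicate number. TCA and GCA are cholic acid joined to taurine and to glycine, and Tβ-MCA is β-muricholic acid joined to taurine. Nothing states that the samples came from separate mice, so p-values measure only the spread between these samples, which may be technical. The model is limited to isolated marrow cells in a dish.

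NETs are threads of decondensed chromatin coated with granule proteins that neutrophils release. PAD4, the product of Padi4, converts arginines of histones to citrulline, and granule proteases such as neutrophil elastase cut histones, while the inhibitor encoded by Serpinb1a blocks elastase, cathepsin G and proteinase 3 inside the cell. Nucleases act at different places: DNASE1L3 is secreted and digests DNA in chromatin and on microparticles, DNase II works in lysosomes, and TREX1 removes DNA from the cytosol, where it would otherwise set off the cGAS and STING sensors.

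Total counts lay between 32757389 and 41375925 per sample, so that 3 counts were worth 0.0725 to 0.0931 normalized counts in the unit CPM, which is scaled to library depth. The cells expressed the neutrophil markers, with a summed level of 39093 to 60421 CPM for 12 genes over all samples, and monocyte or macrophage markers were present too. The sum of the 16 monocyte or macrophage markers was 3033 to 3565 CPM with PBS, 2798 to 3561 CPM with TCA and 2025 to 3185 CPM with GCA. With Tβ-MCA it was 480 CPM in replicate 3, 557 CPM in replicate 4 and 2293 CPM in replicate 5. Tβ-MCA replicate 5 thus stood apart from the other samples of its group, and fold changes of the 8 genes with Tβ-MCA are given with and without it.

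Padi4 was the main deiminase of these cells. With PBS its level per exon length was 73.5 ± 2.30 RPKM (reads scaled to exon length and library depth; SD, n = 3), against 3.23 ± 1.0 RPKM for Padi2. The mean of the ratio of both RPKM values within a sample was 23.9 ± 5.81 with PBS, 23.5 ± 6.69 with TCA, 24.3 ± 7.07 with Tβ-MCA and 23.0 ± 4.00 with GCA (SD, n = 3). Both genes lie on chromosome 4 of GRCm38, Padi4 at chr4:140745865-140774236 on the minus strand and Padi2 at chr4:140906344-140952586 on the plus strand. The sequences upstream of both starts (RefSeq, GRCm38.p6) are shown because the paralogs differ so much in level. Capitals mark the AP-1 motif TGACTCA in Padi4 and the GC box GGGCGG, on either strand, in Padi2. Bases inside annotated genes were left out, so the runs stop short of the start sites.

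Padi4, chr4:140774240-140774453, minus strand: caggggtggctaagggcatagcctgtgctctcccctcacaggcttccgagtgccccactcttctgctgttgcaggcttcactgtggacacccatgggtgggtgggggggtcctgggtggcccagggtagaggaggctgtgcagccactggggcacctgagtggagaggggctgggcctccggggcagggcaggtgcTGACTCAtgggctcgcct

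Padi2, chr4:140906110-140906335, plus strand: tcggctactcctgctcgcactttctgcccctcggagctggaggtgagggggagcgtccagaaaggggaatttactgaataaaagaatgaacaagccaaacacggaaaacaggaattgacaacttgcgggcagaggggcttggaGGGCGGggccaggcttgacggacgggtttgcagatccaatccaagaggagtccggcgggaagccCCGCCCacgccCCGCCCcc

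A set of 5 motifs was searched on both strands in the 250 bases before each start. Padi4 had the AP-1 motif beginning 54 bases before the start and the TATA box TATAAA at 31 bases, the latter outside the printed run, and Padi2 had 3 GC boxes. Of 32851 promoters, 4.46% held TGACTCA, 12.4% held TATAAA, 32.7% held GGGCGG, 6.02% the E-box CACGTG and 23.3% the ETS motif GAGGAA. The motifs do not overlap each other in these windows, and a match is a run of letters and no measured binding.

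Padi4 had overlapping values in all groups. Its CPM values in replicates 3, 5 and 6 with PBS were 377, 352 and 351, and in replicates 3, 4 and 5 they were 400, 344 and 337 with TCA, 368, 331 and 354 with Tβ-MCA and 405, 352 and 373 with GCA. Sample 3 was the highest of each group, and the log2 fold change with Tβ-MCA was -0.04 ± 0.077 (SE), and -0.04 ± 0.086 without replicate 5. Padi2 was higher in the samples numbered 3 of every group. It was at 22.5, 26.2, 23.7 and 22.6 CPM in the samples numbered 3 of PBS, TCA, Tβ-MCA and GCA, and between 12.3 and 15.2 CPM in the other 8 samples. The mean of the samples numbered 3 was 1.76 times that of the rest. Summed levels of 7 basophil or mast cell markers had the same pattern. They were 70.0, 70.8, 61.7 and 69.5 CPM in the samples numbered 3 and 32.4 to 41.0 CPM in the other 8. The sum of monocyte or macrophage markers had no such pattern, and a link to Padi2 was not tested. The log2 fold change of Padi2 with Tβ-MCA was -0.02 ± 0.39 (SE), and 0.13 ± 0.44 without replicate 5. Of its 5013 exon bases, 149 are shared with Gm13031 on the opposite strand, and the strand setting of the counting is not stated.

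**Figure D1:**
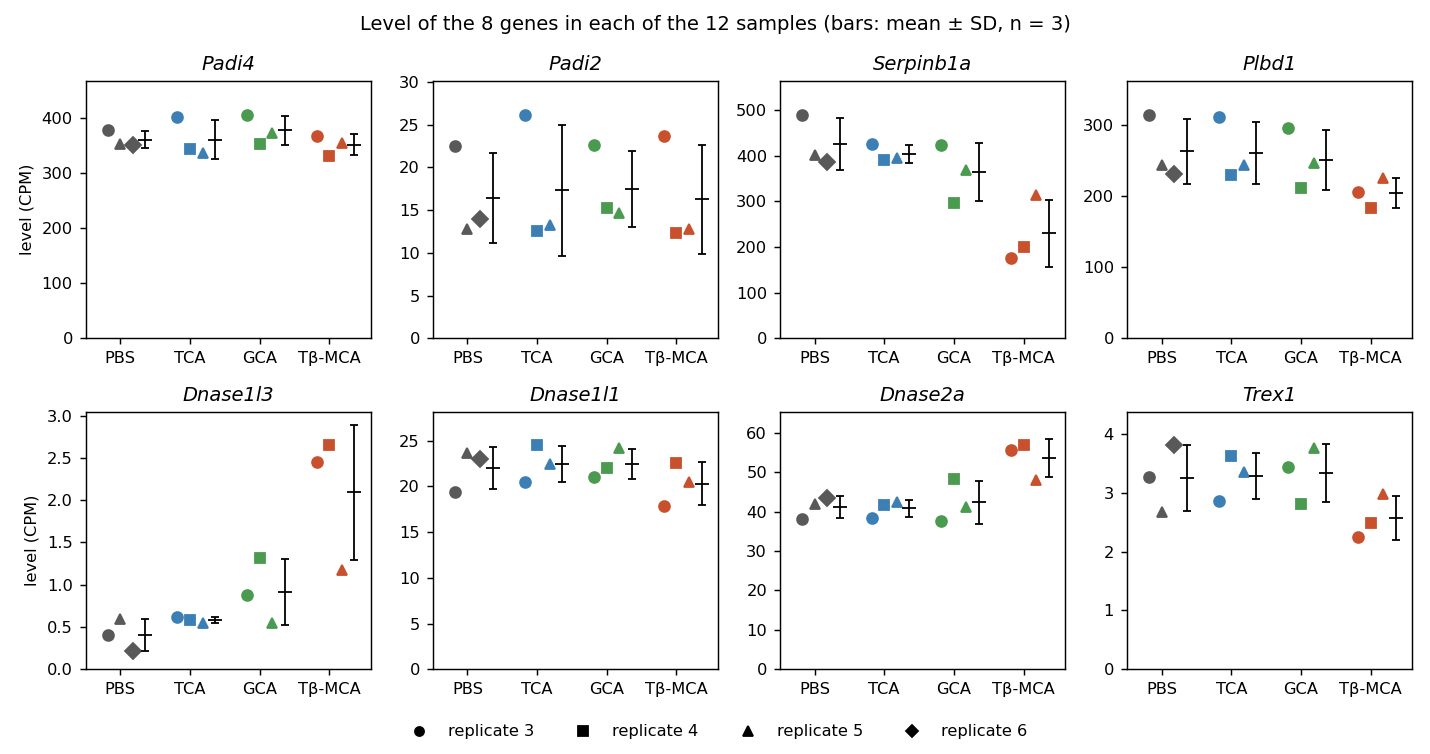
CPM of each of the 8 genes in the 12 samples, with a point for each sample, a horizontal mark and bar for the group mean ± SD (n = 3), and an axis of its own from 0 in each panel. Dnase1l3 and Dnase2a are higher with Tβ-MCA than in every PBS sample, Serpinb1a and Plbd1 are lower, and the other 4 genes overlap.

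Serpinb1a had the lowest fold change of the 8 genes with Tβ-MCA. It lies at chr13:32842092-32851185 on the minus strand, shares no exon with another gene, and was the most abundant of the 8 per exon length, with 216 ± 26.1 RPKM with PBS (SD, n = 3). In the order of replicates used above, PBS gave 490, 401 and 386 CPM, TCA gave 426, 391 and 396 CPM, Tβ-MCA gave 175, 201 and 314 CPM and GCA gave 424, 297 and 370 CPM. All 3 Tβ-MCA samples lay below all PBS samples, with replicate 5 nearest to them. The mean was 230 ± 73.8 CPM with Tβ-MCA against 426 ± 56.2 CPM with PBS (SD, n = 3), a fold change of 0.540 and a log2 fold change of -0.89 ± 0.21 (SE). Without Tβ-MCA replicate 5 the log2 fold change was -1.18 ± 0.14 (SE).

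Plbd1, a phospholipase B-like protein of granules, was lower with Tβ-MCA by a smaller margin. It lies at chr6:136612070-136661928 on the minus strand and stood at 315, 243 and 230 CPM with PBS, 311, 229 and 243 CPM with TCA, 206, 183 and 225 CPM with Tβ-MCA and 295, 212 and 246 CPM with GCA. The highest Tβ-MCA sample, at 225 CPM, lay just under the lowest PBS sample, at 230 CPM. The fold change with Tβ-MCA was 0.779, with a log2 fold change of -0.36 ± 0.16 (SE), and -0.44 ± 0.18 without replicate 5.

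Dnase1l3 had the highest fold change of the 8 genes with Tβ-MCA and by far the lowest level. It lies at chr14:7964533-7994573 on the minus strand and shares no exon with another gene. In replicates 3, 5 and 6 with PBS it had 14, 20 and 8 counts, and in replicates 3, 4 and 5 it had 20, 24 and 20 counts with TCA. Counts in replicates 3, 4 and 5 were 82, 98 and 44 with Tβ-MCA and 31, 46 and 21 with GCA. In CPM, PBS gave 0.402, 0.589 and 0.216, TCA gave 0.620, 0.580 and 0.541, Tβ-MCA gave 2.45, 2.65 and 1.18 and GCA gave 0.873, 1.32 and 0.545. Every Tβ-MCA sample lay above every PBS and TCA sample, whereas GCA replicate 4, at 1.32 CPM, lay above Tβ-MCA replicate 5. Means were 0.402 ± 0.186 CPM with PBS, 0.581 ± 0.0394 with TCA, 0.912 ± 0.388 with GCA and 2.09 ± 0.798 with Tβ-MCA (SD, n = 3). TCA and GCA overlapped in this order, as did PBS with both. The fold change with Tβ-MCA was 5.20, with a log2 fold change of 2.38 ± 0.41 (SE), and 2.67 ± 0.38 without replicate 5. All 12 samples were above the limit of 3 counts. Per exon length the PBS level was 0.0770 ± 0.0357 RPKM (SD, n = 3), beside 216 RPKM for Serpinb1a and 73.5 RPKM for Padi4.

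Dnase1l3 is known as a product of macrophages and dendritic cells. The sum of 10 dendritic cell markers was 115 to 135 CPM with PBS and 60.4 to 103 CPM with Tβ-MCA, most of it Irf8, at 85.0 ± 6.84 CPM with PBS and 49.2 ± 18.8 CPM with Tβ-MCA (SD, n = 3). Of the 9 dendritic cell markers tested, 1, Clec10a, was called, and it was lower. Irf8, Clec9a, Flt3 and Itgax had log2 fold changes of -0.79 ± 0.22, -0.75 ± 0.29, -0.49 ± 0.25 and -0.48 ± 0.18 (SE) and did not pass. Siglech, Cd209a, Zbtb46 and Ccr9 had 0.18 ± 0.43, 0.25 ± 0.63, 0.24 ± 0.71 and 0.02 ± 0.32 (SE), so their direction was not resolved. Fn1, a marker of monocytes and macrophages, was at 50.3, 54.4 and 1233 CPM with Tβ-MCA and at 1621 to 2190 CPM with PBS. Ccr2, the chemokine receptor of inflammatory monocytes, was at 2.03, 2.70 and 29.2 CPM with Tβ-MCA and at 37.3 to 51.2 CPM with PBS. Fn1 and Ccr2 had the largest falls of the 16 monocyte or macrophage markers, and neither passed (edgeR adjusted p = 0.301 and 0.206). The 16 log2 fold changes ran from -2.03 for Fn1 to -0.35 for C1qc, with a median of -0.93, and 1 of 16 passed. Csf1r, Mrc1 and C1qb, at -0.42, -0.49 and -0.61, overlapped PBS. In Tβ-MCA replicate 5, where Fn1 and Ccr2 were highest of the group, Dnase1l3 was lowest and Serpinb1a was highest. The part of these cells in the values of the 8 genes was not tested, and in such bulk samples fewer cells of a type and less RNA per cell cannot be told apart.

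**Figure D2:**
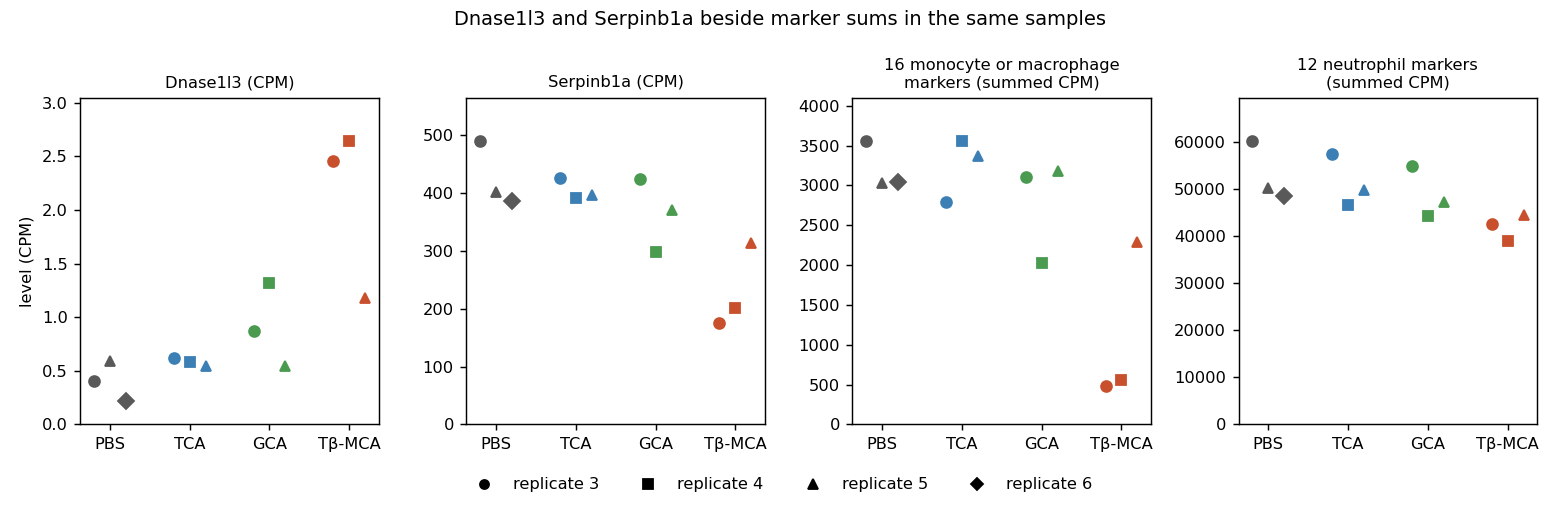
CPM of Dnase1l3 and of Serpinb1a and summed CPM of the 16 monocyte or macrophage and the 12 neutrophil markers, with a point for each of the 12 samples by group and a symbol for the replicate number. Tβ-MCA replicates 3 and 4 sit at 480 and 557 CPM of monocyte or macrophage markers, and replicate 5, at 2293 CPM, lies nearer to the other groups.

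Dnase2a, which encodes the acid nuclease DNase II of lysosomes, was modestly higher with Tβ-MCA. It lies at chr8:84908560-84922915 on the plus strand and stood at 38.2, 42.0 and 43.4 CPM with PBS, 38.3, 41.7 and 42.5 CPM with TCA, 55.8, 56.8 and 48.0 CPM with Tβ-MCA and 37.7, 48.3 and 41.2 CPM with GCA. All Tβ-MCA samples lay above the PBS and TCA samples, and GCA replicate 4, at 48.3 CPM, lay just above Tβ-MCA replicate 5, at 48.0 CPM. The fold change with Tβ-MCA was 1.30, with a log2 fold change of 0.38 ± 0.095 (SE), and 0.45 ± 0.097 without replicate 5. Of its 5389 exon bases, 1616 overlap Mast1 on the opposite strand, a gene with 4310 counts over all samples, and reads of both cannot be told apart if strand was not used.

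Dnase1l1, a DNase I-like enzyme whose gene lies at X:74273217-74282337 on the minus strand, had overlapping values in all groups. Its values were 19.4, 23.7 and 23.0 CPM with PBS, 20.5, 24.5 and 22.4 CPM with TCA, 17.9, 22.5 and 20.5 CPM with Tβ-MCA and 21.0, 22.1 and 24.2 CPM with GCA. No group was above or below another, with a log2 fold change of -0.12 ± 0.11 (SE) with Tβ-MCA, and -0.12 ± 0.12 without replicate 5. Among the DNases, Dnase1l1 and Dnase2a were near each other per exon length, and the ratio of Dnase2a to Dnase1l1 in RPKM was 0.739 ± 0.0375 with PBS, 0.717 ± 0.0404 with TCA, 0.745 ± 0.102 with GCA and 1.05 ± 0.160 with Tβ-MCA (SD, n = 3).

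Trex1, the exonuclease of cytosolic DNA, is at chr9:109057933-109059734 on the minus strand. It stood at 3.27, 2.68 and 3.80 CPM with PBS, 2.85, 3.63 and 3.36 CPM with TCA, 2.24, 2.48 and 2.97 CPM with Tβ-MCA and 3.44, 2.81 and 3.76 CPM with GCA. Tβ-MCA replicate 5, at 2.97 CPM, lay within the range of PBS, and replicates 3 and 4 lay below all PBS samples. The log2 fold change with Tβ-MCA was -0.34 ± 0.19 (SE), and -0.46 ± 0.21 without replicate 5. All 1147 exon bases of Trex1 are also exon bases of Gm42641 on the same strand, so its values are uncertain. Per exon length with PBS the order was Serpinb1a, Plbd1 at 98.5 RPKM, Padi4, Dnase1l1 at 10.3 RPKM, Dnase2a at 7.56 RPKM, Padi2, Trex1 at 2.80 RPKM and Dnase1l3, and only Padi2 and Trex1 overlapped among neighbours in this order.

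In all, 2 of the 8 genes were higher and 2 lower with Tβ-MCA without overlap between the groups. Among all genes tested, 27% did not overlap between Tβ-MCA and PBS, 14.1% being higher and 12.8% lower. Since the genes were chosen with this contrast in view, nothing is read from that count.

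**Figure D3:**
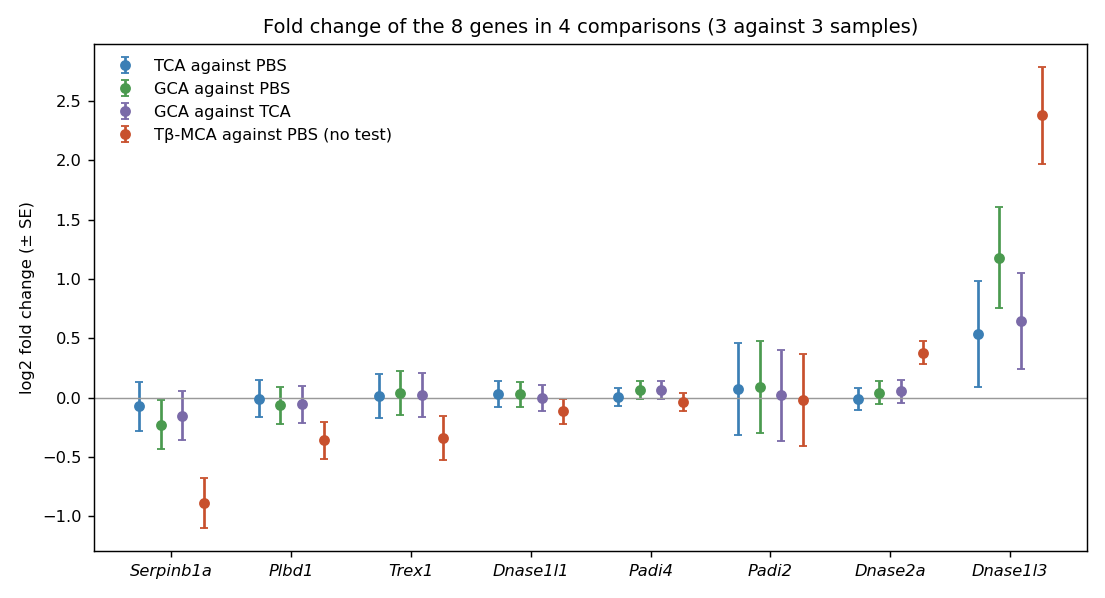
Log2 fold change of each of the 8 genes for each bile acid against PBS and for GCA against TCA, with bars of ± SE from the edgeR fit. Dnase1l3 lies at 2.38 with Tβ-MCA, 1.18 with GCA and 0.54 with TCA, and Serpinb1a at -0.89, -0.23 and -0.08.

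TCA and GCA, which the choice of genes did not use, were tested with edgeR against the same PBS samples that served Tβ-MCA. With TCA, 0 of 8 genes passed a Benjamini-Hochberg adjusted p under 0.05, as did 0% of all genes tested, and none had an unadjusted p under 0.05, against 3.26% of all genes. DESeq2 also called 0 of the 8 genes with TCA. The share of all genes called by DESeq2 is not given, here or below, so nothing further is read from its counts. Log2 fold changes of the 8 genes with TCA ran from -0.08 for Serpinb1a to 0.54 for Dnase1l3, and no gene was without overlap, against 9.67% of all genes. The interval for Padi4 with TCA was 0.894-fold to 1.12-fold and that for Serpinb1a 0.689-fold to 1.31-fold, while that for Dnase1l3, at 8 to 24 counts a sample, was 0.751-fold to 2.80-fold.

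With GCA, 0 of 8 genes passed the adjusted p in edgeR, as did 0% of all genes tested, and 0 passed in DESeq2. Dnase1l3 alone had an unadjusted p under 0.05, which 3.53% of all genes had. It was 2.26-fold higher than with PBS, with a 95% interval of 1.21-fold to 4.25-fold, a log2 fold change of 1.18 ± 0.43 (SE) and an adjusted p of 0.999 by edgeR, and so the difference did not pass the test. At the study's thresholds, an unadjusted p under 0.05 and a fold change of 2, it was called, as were 0.531% of all genes. That call was lost without GCA replicate 4 (log2 fold change 0.82), without PBS replicate 6 (0.87) and with a block for replicate number (0.62), where the fold change was under 2. GCA replicates 3 and 4 lay above all PBS samples and replicate 5 lay within their range. No gene was without overlap between GCA and PBS, against 9.55% of all genes. Serpinb1a had a log2 fold change of -0.23 ± 0.21 (SE) with GCA, with an adjusted p of 0.999 by edgeR. GCA replicate 4 was the GCA sample nearest to Tβ-MCA for Dnase1l3, Dnase2a, Serpinb1a and Plbd1. It also had the lowest Fn1 of its group, at 57.3% of the PBS mean, and a Serpinb1a level of 69.7% of the PBS mean. Its sum of neutrophil markers was the lowest of the GCA samples too, at 44281 CPM against 55070 and 47291 CPM. A link between these values was not tested.

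GCA and TCA were compared at the same dose and time, since they differ in the amino acid joined to cholic acid. In this comparison 0 of the 8 genes passed the adjusted p in edgeR, as did 0% of all genes, 0 passed in DESeq2, and 0 had an unadjusted p under 0.05, against 2.46% of all genes. The widest difference was that of Dnase1l3, 1.56-fold higher with GCA, with a 95% interval of 0.859-fold to 2.84-fold (edgeR, adjusted p = 1.0). For Padi4 the interval was 0.934-fold to 1.17-fold and for Dnase2a 0.901-fold to 1.19-fold. No gene was without overlap between GCA and TCA, against 8% of all genes. Tβ-MCA was not tested against TCA or GCA, since the labels and the methods differ on its dose.

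The other genes of the pathway were a list of 60, of which 53 could be tested. This list, too, was chosen with earlier results of these data known, so its counts of calls are no independent support. With Tβ-MCA, 6 of the 53 fell and 0 rose at an adjusted p under 0.05 in edgeR, where 7.62% of all genes were called, 4.44% higher and 3.18% lower. Scaled by total library size, 1013 of the genes tested were higher and 395 lower, against 745 and 533 with TMM, and 5 of the list fell. The study's edgeR thresholds were read as an unadjusted p under 0.05 and a fold change of 2. By them, 6 of the 53 were lower and 0 higher, against 2.95% of all genes. These were Elane, Mpo, Ctsg, Camp, Serpinb2 and Serpinb10, and 1 of them, Camp, was also called by adjusted p. The median log2 fold change of the 53 was -0.10 and that of all genes tested 0.004.

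Of the 22 genes of NET formation tested, 3 fell. Ctsc encodes cathepsin C, which activates the granule serine proteases, and went from 25.7, 24.2 and 25.2 CPM with PBS to 11.6, 9.99 and 19.5 CPM with Tβ-MCA (log2 fold change -0.87 ± 0.20 SE, adjusted p = 0.0307, edgeR). Camp, the cathelicidin found on NETs and also a marker of neutrophils, went from 716, 505 and 468 CPM to 217, 198 and 349 CPM (log2 fold change -1.14 ± 0.28 SE, adjusted p = 0.0417, edgeR). Ncf1 encodes a subunit of the NADPH oxidase, whose oxidants trigger NET release, and went from 2579, 2342 and 2295 CPM to 1866, 1771 and 2079 CPM (log2 fold change -0.34 ± 0.077 SE, adjusted p = 0.0251, edgeR). The groups did not overlap for any of these genes, and 12.8% of all genes tested were lower without overlap. These genes were named for passing in the same contrast, so the lack of overlap adds no support.

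The genes of myeloperoxidase and of the NET proteases did not pass an adjusted p under 0.05 with all samples, and passed it without Tβ-MCA replicate 5. Mpo, named after its values were seen, was at 209, 195 and 206 CPM with PBS and at 32.3, 44.5 and 154 CPM with Tβ-MCA (edgeR adjusted p = 0.137). Elane, which encodes neutrophil elastase and was also named after its values were seen, was at 21.8, 27.8 and 25.9 CPM with PBS and at 2.72, 5.94 and 19.2 CPM with Tβ-MCA (edgeR adjusted p = 0.160). In each, Tβ-MCA replicates 3 and 4 were far below PBS and replicate 5 was nearer to it. Without replicate 5 the log2 fold changes were -2.40 for Mpo and -2.53 for Elane, with edgeR adjusted p of 6.2e-05 and 0.00064. The protease genes Prtn3 and Ctsg then had log2 fold changes of -1.16 and -1.92, with edgeR adjusted p of 0.00081 and 6.2e-05. That fit keeps only Tβ-MCA replicates 3 and 4, and 18% of all genes were called in it. Replicate 5 was the Tβ-MCA sample nearest to PBS in all of these genes, so leaving it out favours small p-values. They are a description and no independent support.

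Elsewhere in the pathway, 1 of 13 nucleases and their inhibitor fell. This was Samhd1, which encodes an enzyme that breaks down dNTPs, at 501, 484 and 493 CPM with PBS and 378, 418 and 432 CPM with Tβ-MCA (log2 fold change -0.27, adjusted p = 0.0290, edgeR). Of 10 genes of DNA sensing, Unc93b1, which carries nucleic acid receptors to endosomes, fell from 450, 451 and 421 CPM to 367, 372 and 402 CPM (log2 fold change -0.21, adjusted p = 0.0428, edgeR). Of 7 serine protease inhibitors, Slpi, a secreted elastase inhibitor, fell from 57.5, 73.6 and 65.5 CPM to 26.2, 37.0 and 50.1 CPM (log2 fold change -0.79, adjusted p = 0.0438, edgeR), in the same direction as Serpinb1a. Plbd2, the relative of Plbd1, was at 13.2 to 15.4 CPM with PBS and 13.3 to 15.2 CPM with Tβ-MCA. Padi1 and Padi6, the other deiminases that were not tested, had at most 7 and 11 counts in any sample.

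**Figure D4:**
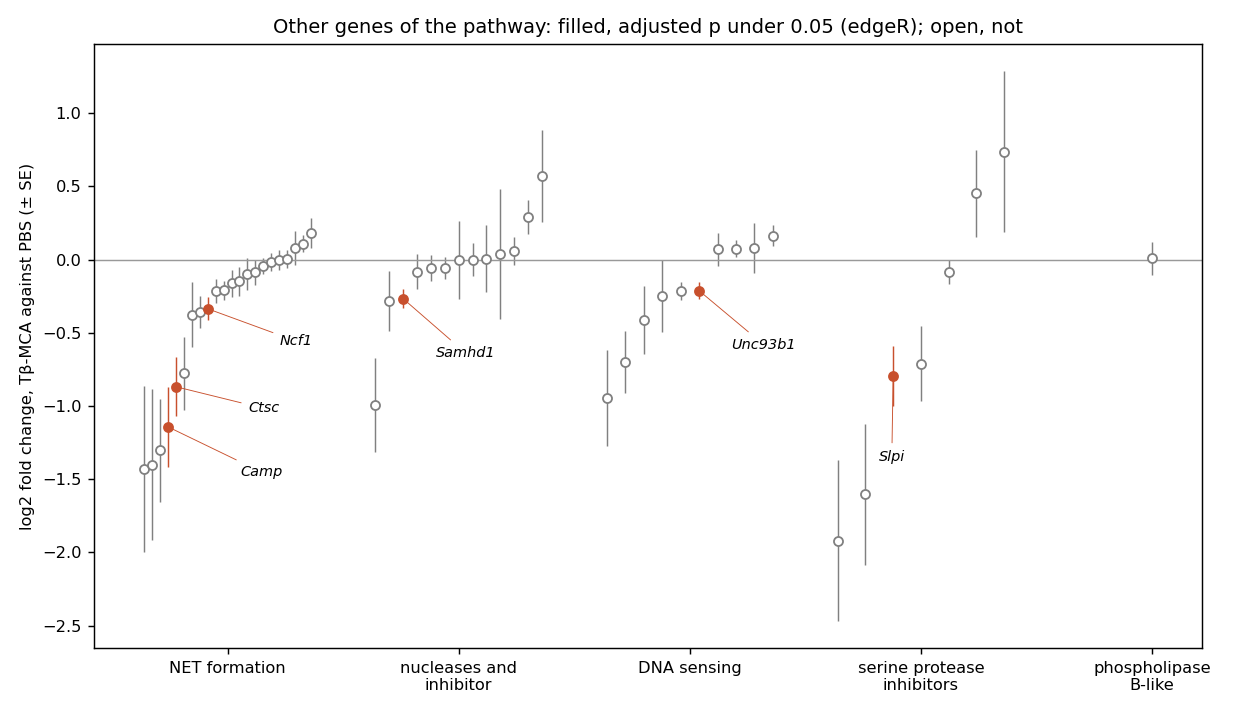
Log2 fold change with Tβ-MCA against PBS of the 53 other genes of the pathway tested, by list, with bars of ± SE from the edgeR fit; filled points passed an adjusted p under 0.05. The 6 filled points all lie below 0, between -1.14 and -0.21.

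These calls depended on single samples. Without Tβ-MCA replicate 5 the log2 fold changes were -1.21 for Ctsc, -1.44 for Camp, -0.40 for Ncf1, -0.31 for Samhd1, -0.25 for Unc93b1 and -1.05 for Slpi. In that fit 22 genes of the 55 then tested fell and 2 rose, where 18% of all genes were called, 8.52% higher and 9.44% lower, and 12 of the 16 monocyte or macrophage markers fell, against 1 of 16, Ly6c2, with all samples. With any single one of the other 5 samples of both groups left out, 0 of the list passed the adjusted p in edgeR. In those fits 2875 to 3792 of all genes had an unadjusted p under 0.05, a looser threshold. The share of all genes that passed the adjusted p there is not given, so the 0 is not read as particular to the list. The sum of the 12 neutrophil markers was 48718 to 60421 CPM with PBS and 39093 to 44494 CPM with Tβ-MCA, and 4 of the 12 fell, Camp among them. The part of these markers in the calls was not tested.

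With TCA and with GCA, 0 of the 53 other genes passed in edgeR, as did 0% of all genes, and 0 passed in DESeq2. Of the 53, 3 had an unadjusted p under 0.05 with TCA, 2 with GCA and 1 between GCA and TCA. The nuclease gene Dnase1 was among them with both bile acids and is named for that after its values were seen. It was at 0.426 ± 0.0468 CPM with PBS, 0.867 ± 0.0275 CPM with TCA and 0.721 ± 0.122 CPM with GCA (SD, n = 3). Log2 fold changes were 1.02 for TCA and 0.76 for GCA against the same PBS samples, and neither passed the adjusted p of edgeR, which was 1.0 and 0.999. With Tβ-MCA, Dnase1 was at 0.638 ± 0.173 CPM (SD, n = 3), with a log2 fold change of 0.57 ± 0.31 (SE) and an edgeR adjusted p of 0.276. All bile acids were thus set against the same PBS samples, in which Dnase1 was low. At the study's thresholds Dnase1 was called with TCA, where 0.465% of all genes were.

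The genes whose pattern over the 12 samples was most like that of Dnase1l3 were Phtf1, Pmm1, Plin4, Keap1 and Gm26527, with Pearson r of log2 CPM between 0.937 and 0.956. These values describe 12 samples that share treatments. Keap1, which encodes the repressor of the NRF2 oxidative stress response, was at 43.6 to 44.9 CPM with PBS, 44.0 to 44.7 CPM with TCA, 46.3 to 49.4 CPM with GCA and 50.3 to 59.3 CPM with Tβ-MCA. Pmm1, a phosphomannomutase, was at 13.8 to 14.6 CPM with PBS, 13.9 to 16.7 CPM with TCA, 15.0 to 19.4 CPM with GCA and 19.4 to 25.2 CPM with Tβ-MCA. As with Dnase1l3, replicate 5 was the lowest Tβ-MCA sample and replicate 4 the highest GCA sample for both genes. For Plin4 the highest GCA sample was replicate 3, at 1.75 CPM against 1.69 CPM in replicate 4. The genes were picked for their likeness to Dnase1l3 over these samples, so a shared order is no further result.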

How the data were processed

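RNA-seq was done on 12 samples, 3 in each of 4 groups taken from the labels. Per the submitters' processing notes, reads were trimmed with Trimmomatic 0.36, mapped to GRCm38 with STAR 2.5.3a and counted on exons with featureCounts of Subread 1.5.1. The strand setting is not given in the sources used here. The authors deposited raw counts per gene and RPKM, the latter being counts scaled by merged exon length and by the total of counted reads. Replicates were not pooled. The RPKM recalculated from the counts differed by a relative 1.3e-06 at most, and RPKM was used only to compare levels between genes.

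CPM was calculated from the counts with library sizes scaled by TMM factors. Groups were compared in R 4.3.3 with the robust quasi-likelihood test of edgeR 4.0.16, with TMM normalization, filterByExpr by group, all 12 samples in the fit and Benjamini-Hochberg adjustment over 16761 genes. A gene was called at an adjusted p under 0.05. The script was tested on simulated data. Log2 CPM used a prior count of 2. Standard errors were derived from the F statistic, and intervals are 95% intervals of the fit, and the limit of 3 counts covers counting error only, since PCR reads are not independent molecules.

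The 8 genes and the lists of pathway and marker genes were chosen with earlier results of these data known. Named were all 8 genes, each other pathway gene called, and the 5 genes with the highest Pearson correlation with Dnase1l3. RefSeq promoters were found for 6 of the 8 genes. Alternatives were RLE or total library size, no filter or at least 10 counts in every sample, DESeq2 1.42.0, only the 2 groups compared, the replicate block, each sample left out, and the thresholds of the study, an unadjusted p under 0.05 and a fold change of 2. The study's methods do not say whether the p of its cutoff was adjusted, and elsewhere name DESeq2 with Benjamini-Hochberg adjustment. Figures used Python 3.11.15 and matplotlib 3.10.9.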

Additional observations from a re-analysis of the deposited data

How the results depend on the processing

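Of the other pathway genes, 6 were called with Tβ-MCA in edgeR, all lower. The count was 17 without a filter on low counts and 18 with DESeq2, all lower, and 0 when only the 2 groups compared were fitted, where 0 of all genes passed and 3485 had an unadjusted p under 0.05. It ranged from 0 to 24 when each sample was left out in turn, being 24 without Tβ-MCA replicate 5 and 0 without each of the other 5. It was 5 to 9 under the other settings. The share of all genes called is not given for DESeq2, for no filter, or for the other 5 left-out fits. The counts from those settings are therefore not read as a stronger or weaker result for the list. With the thresholds of the study, 1 pathway gene (Dnase1) was called with TCA and 1 of the 8 genes (Dnase1l3) with GCA, against 0 of each in edgeR with adjusted p.

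When a block for replicate number entered the fit, the log2 fold change of Dnase1l3 with Tβ-MCA was 1.82 in place of 2.38, that with GCA 0.62 in place of 1.18 and that with TCA 0.02 in place of 0.54, and 8 pathway genes were called with Tβ-MCA. The pairing is only a shared number: deviations from the group means correlated between same-numbered samples with r from 0.0597 to 0.326 over 15 pairs, 12 of them over 0.1, and 10 of 11 samples correlated best with their own number. No call by adjusted p among the 8 genes with TCA or GCA changed under the block, and the call of Dnase1l3 with GCA at the thresholds of the study was lost.

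The log2 fold change of Serpinb1a with Tβ-MCA was -1.18 without replicate 5, in place of -0.89; the cause was not tested. The remaining 101 of 103 values of the 8 genes with Tβ-MCA moved by less than the spread between replicates, and all 103 values in each of the other comparisons kept their side of the threshold. Leaving out each sample moved Dnase1l3 with GCA between 0.82 and 1.55, with adjusted p from 0.333 to 1 over all alternatives. Dnase1l3 could not be tested where at least 10 counts were required in every sample, since a PBS sample had 8. The low counts of Dnase1l3 limit its precision with TCA and GCA.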

Other observations

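Markers of other blood cells, which are not part of the pathway, were also measured in these samples. The sum of 9 eosinophil markers was 164 to 289 CPM with PBS and 64.6 to 147 CPM with Tβ-MCA, and 1 of the 9, Siglecf, fell in edgeR (Benjamini-Hochberg adjusted p = 0.0326). Of 9 dendritic cell markers tested, Clec10a fell (edgeR adjusted p = 0.0395), from 4.54 ± 0.324 to 2.97 ± 0.488 CPM (SD, n = 3). The 7 B cell markers summed to 7.55 to 12.9 CPM with PBS and 3.78 to 5.92 CPM with Tβ-MCA, and Cd79a, a part of the B cell receptor, fell (edgeR adjusted p = 0.0326). The 7 markers of T or NK cells found in the table summed to 2.47 to 3.62 CPM with PBS and 1.46 to 1.77 CPM with Tβ-MCA. The 7 markers of basophils or mast cells summed to 36.4 to 70.0 CPM with PBS and 32.6 to 61.7 CPM with Tβ-MCA, and 7 erythroid markers to 1.35 to 2.53 CPM and 1.44 to 2.32 CPM. Of the tested markers of T or NK cells, of basophils or mast cells and of erythroid cells, 0 of 14 passed in edgeR.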
